A study of Rattus norvegicus with 12 samples.

Results

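Gene expression was compared between the thalamus and the rostral ventral medulla (RVM) of rats labelled as receiving 0.9% saline. The comparison covered the 14396 genes, of 34525 in the table, whose mean over the 6 libraries was at least 1 FPKM (fragments per kilobase of gene, divided by the size of the library, a level that can be compared between genes). Stap2 was the gene just inside that limit, with a mean of 1.0011 FPKM, and Slc2a4 the gene just outside it, with 0.9991 FPKM. There were 3 thalamus and 3 RVM libraries, out of 12 in a study of chronic orofacial pain whose other libraries came from the same regions of rats labelled CFA, letters that the labels do not spell out. The rats of both saline groups carry no other treatment or allele in the labels. Strain, sex, age, injection site and time are not given, and the protocol for RNA extraction names retinas. Whether the samples came from separate animals, and whether both regions came from the same rats, is not stated, so each p-value reflects the spread among these 6 samples alone. In pieces of whole tissue, fewer cells of a type and less RNA per cell cannot be told apart.

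The thalamus is the forebrain relay through which sensory signals, pain included, reach the cortex. Most of its projection neurons are glutamatergic, carry T-type calcium channels that let them fire in bursts, and receive inhibition from the thalamic reticular nucleus. The RVM lies in the caudal brainstem around the nucleus raphe magnus. Its serotonin, GABA, glycine and peptide neurons project to the trigeminal nucleus and spinal cord, where they facilitate or inhibit incoming pain signals, and opioids act on it through their receptors. Large myelinated tracts run beside and through it. The hindbrain is patterned in the embryo by Hox genes, which the forebrain does not use, whereas thalamic neurons are specified by factors such as Tcf7l2 and Gbx2.

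The libraries were checked against these identities. Tcf7l2, a factor of the Wnt pathway, stood at 44.9, 130.0 and 104 FPKM in thalamus libraries 1, 2 and 3 and 1.82, 1.77 and 1.57 FPKM in RVM. Hoxb5, a hindbrain patterning gene, was listed at 0 in the 3 thalamus libraries and at 18.0, 13.3 and 13.5 FPKM in RVM. Tph2, the enzyme that makes serotonin in neurons, stood at 0.195, 0.0966 and 0.351 FPKM in thalamus and 57.5, 45.3 and 66.2 in RVM. All 6 libraries thus carried the genes of their labelled region. The libraries held 14.94 to 19.1 M reads assigned to genes, recovered from the values, and within a region they correlated at 0.954 to 0.9781 in thalamus and 0.9824 to 0.9842 in RVM over log2(FPKM + 1) of the genes tested.

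The thalamus libraries were less alike than those of RVM, and each of them carried markers of some neighbouring tissue. Summed over the 30 genes of the thalamic list, thalamus libraries 1, 2 and 3 held 1037, 2261 and 1853 FPKM, and library 1 was the lowest. In library 1 the cortex and hippocampus list summed to 621 FPKM against 374 and 372 in the other thalamus libraries. Dlx1, a factor of forebrain GABA neurons that was chosen after its values were seen, stood at 16.9, 0.723 and 0.570 FPKM in thalamus libraries 1, 2 and 3. Library 2 held the hypothalamic peptide genes Oxt, at 80.4 FPKM, and Avp, at 21.4 FPKM, whereas no other library exceeded 0.403 FPKM of Oxt or 1.87 FPKM of Avp. Library 2 also held the least of the habenula list, with 31.3 FPKM against 132 in library 1 and 121 in library 3. Gpr151, which marks habenular neurons, stood at 28.8, 1.34 and 27.6. Defining markers of cerebellum, Pcp2 and Gabra6, and of peripheral nerve, Prx, did not exceed 0.635 FPKM in any of the 6 libraries. The part of these tissues in the results was not tested, and values without library 1 or 2 stand beside the results that it moved most.

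**Figure D1:**
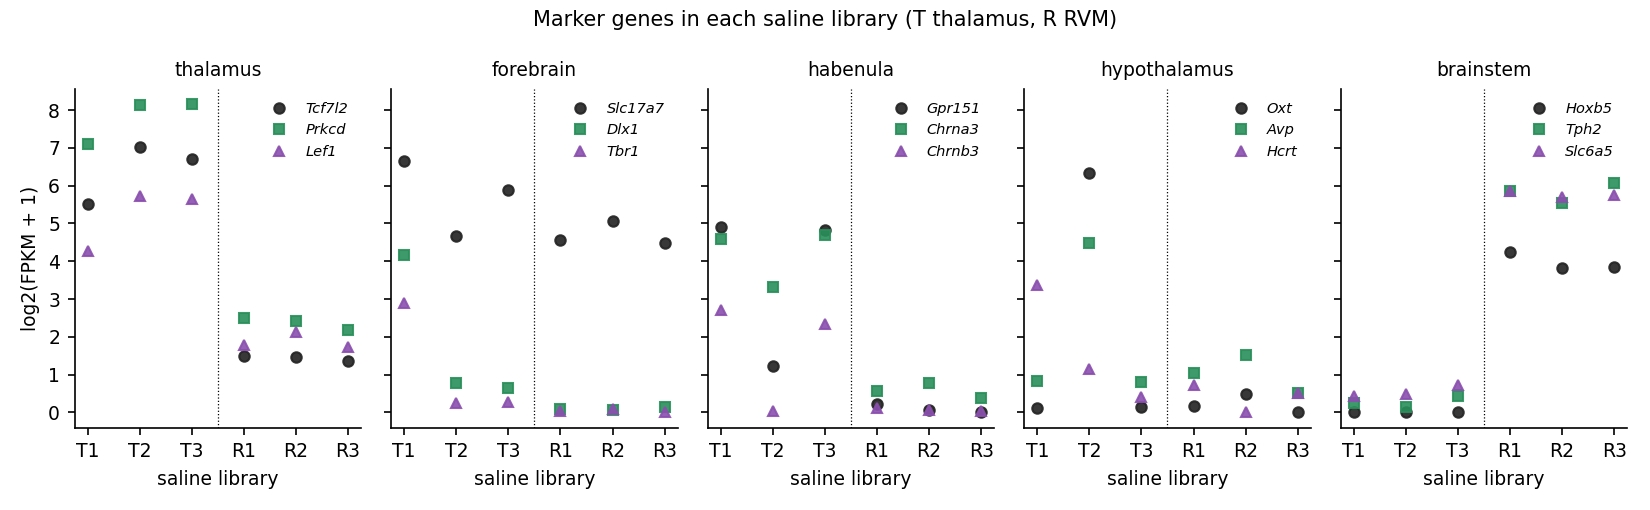
Levels of marker genes, as log2(FPKM + 1) on the y axis, in the 3 thalamus (T1 to T3) and 3 RVM (R1 to R3) saline libraries on the x axis, 1 panel per tissue and 1 symbol per gene. Tcf7l2, Prkcd and Lef1 are high in all 3 thalamus libraries, Hoxb5, Tph2 and Slc6a5 in all 3 RVM libraries, Dlx1 in T1 alone at 16.9 FPKM and Oxt in T2 alone at 80.4 FPKM.

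Nearly as many genes were higher in one region as in the other. Differences were tested with limma on log2(FPKM + 1), and a gene was called where its Benjamini-Hochberg adjusted p over all 14396 genes was below 0.05. Of these, 3249 genes (22.6%) were called higher in thalamus and 3271 (22.7%) higher in RVM, which is 45.3% in all. A difference of at least 1 on the log2 scale, which is thalamus minus RVM throughout, was reached by 1060 genes called higher in thalamus (7.36%) and 578 called higher in RVM (4.02%). The 3 libraries of one region lay entirely above the 3 of the other for 58.8% of all genes tested, thalamus above for 28.9% and RVM above for 29.9%. Among the genes tested, 564 passed the limit of 1 FPKM through their thalamus level alone and 398 through RVM alone. A gene of this kind had to be higher in that region, so the counts and medians of lists that hold them describe the limit as well as the regions, and no list was tested as a whole. The median difference over all genes tested was -0.02. When each library was scaled to the same FPKM total the median became 0.14, and 69.4% of the calls, instead of 49.8%, were higher in thalamus, so the balance of the calls depended on the scaling.

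The 6 CFA libraries took no part in that fit. Of the 3249 genes called higher in thalamus, 3121 (96.1%) had the same sign between the CFA libraries of the regions, and for 2297 (70.7%) those libraries did not overlap. Of the 3271 called higher in RVM, 3049 (93.2%) had the same sign and 2462 (75.3%) did not overlap. The share of all genes tested whose CFA libraries did not overlap was not computed, so these shares have no background beside them. For calls with a difference of at least 1, the sign was the same for 99.4% of those higher in thalamus and 95.5% of those higher in RVM. Within the saline libraries, 2217 of the calls higher in thalamus (68.2%) and 2137 of those higher in RVM (65.3%) held in all 6 fits that left out 1 library. Among calls with a difference of at least 1 these were 938 (88.5%) and 533 (92.2%).

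**Figure D2:**
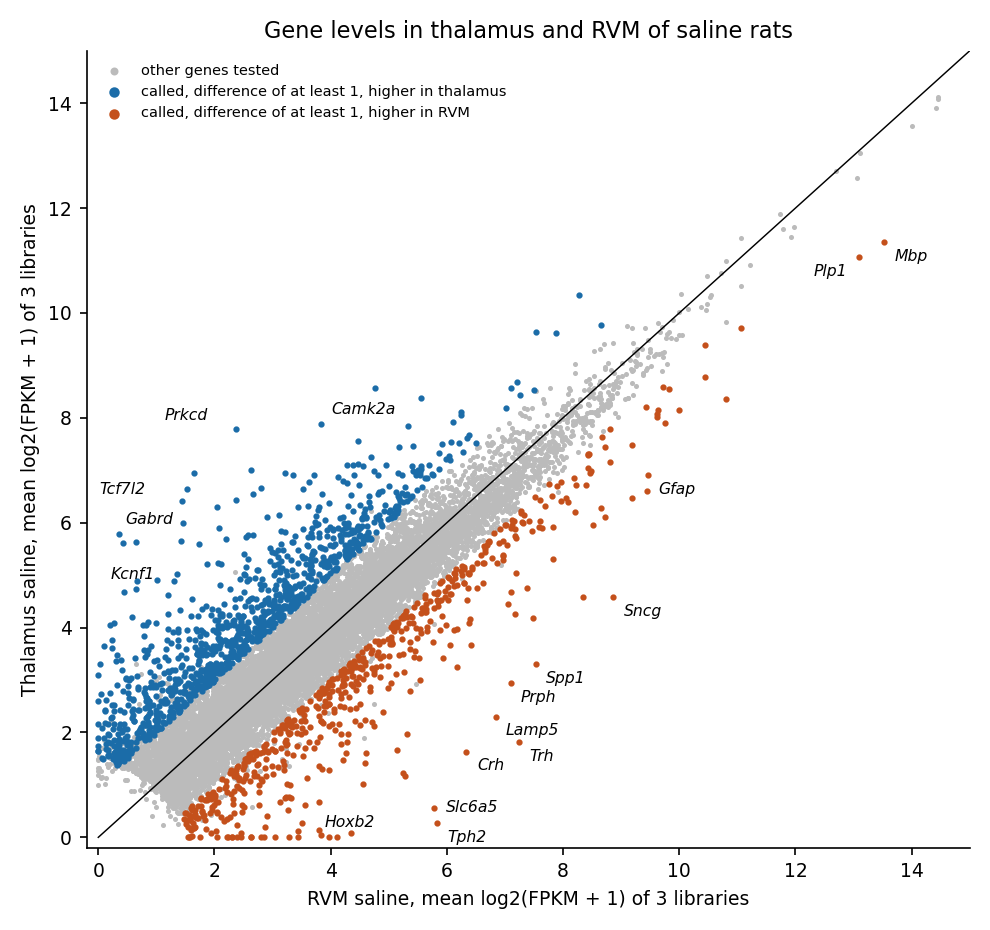
Mean log2(FPKM + 1) of each of 14396 genes in 3 RVM saline libraries (x axis) and 3 thalamus saline libraries (y axis), with the line of equal levels. Blue marks the 1060 genes called higher in thalamus and orange the 578 called higher in RVM with a difference of at least 1, and grey the other genes tested. Prkcd and Gabrd lie farthest above the line and Tph2 and Trh farthest below it.

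The 15 largest differences in favour of thalamus were led by signalling genes of relay neurons. Prkcd, which encodes the delta form of protein kinase C, stood at 137, 279 and 283 FPKM in thalamus libraries 1, 2 and 3 and 4.60, 4.35 and 3.57 FPKM in RVM. All thalamus libraries were far above all RVM libraries, and thalamus library 1 was the lowest of its group. The means were 233 ± 83.5 and 4.17 ± 0.537 FPKM (SD, n = 3 per region), and the difference was 5.43 ± 0.28 (SE, limma adjusted p = 0.000112). Gabrd, the delta subunit of GABA-A receptors that lie outside synapses, stood at 26.2, 76.7 and 77.2 FPKM in thalamus and 0.207, 0.400 and 0.236 in RVM, a difference of 5.42 ± 0.40. No library of one region reached the range of the other for these 2 genes. Necab1, a neuronal calcium-binding protein, followed Yjefn3 with a difference of 5.12 ± 0.28, and Tcf7l2 had one of 4.98 ± 0.37. Ddn, Ptpn3, Camkv, Rasd1, Wipf3, Ildr2, Kcnf1, Rgs16 and Camk2a were also among the 15, with differences of 4.04 to 4.98. Of the 15, Gabrd, Yjefn3, Ddn, Wipf3 and Kcnf1 passed the limit of 1 FPKM through thalamus alone, so they had to be higher there. Ddn, which encodes the postsynaptic protein dendrin, stood at 222, 28.3 and 17.7 FPKM in thalamus and 0.501, 0.481 and 0.760 in RVM, with most of it in thalamus library 1, and was not called by limma-voom on the recovered reads (adjusted p = 0.0717). Its difference was 4.98 with all 6 libraries and 3.89 without thalamus library 1. Camk2a, the alpha subunit of a calcium-dependent kinase of forebrain excitatory synapses, was also highest in library 1, at 378, 205 and 167 FPKM in thalamus and 12.8, 10.1 and 18.2 in RVM, and its call held without that library. In the table Prkcd is ENSRNOG00000016346 (chromosome 16, 6655120 to 6675746), Gabrd is ENSRNOG00000016385 (chromosome 5, 172797450 to 172809353) and Tcf7l2 is ENSRNOG00000049232 (chromosome 1, 276659542 to 276730514). Each value sums a whole gene, with exons and untranslated regions not told apart. No label or file header names the genome build behind these positions.

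The 15 largest differences in favour of RVM held serotonin, glycine and peptide genes. Tph2, given above, had means of 0.214 ± 0.128 and 56.3 ± 10.5 FPKM and a difference of -5.55 ± 0.16 (limma adjusted p = 2.61e-05). Trh, the precursor of thyrotropin-releasing hormone, which raphe serotonin neurons also make, stood at 0.903, 4.30 and 3.34 FPKM in thalamus and 160.3, 102 and 206 in RVM. Slc6a5, the transporter that defines glycine neurons, stood at 0.362, 0.406 and 0.653 FPKM in thalamus and 57.1, 51.0 and 52.9 in RVM. The regions did not overlap for Trh or Slc6a5, whose differences were -5.42 ± 0.42 and -5.22 ± 0.10. Crh, the precursor of corticotropin-releasing hormone, stood at 1.22, 2.40 and 2.98 FPKM in thalamus and 91.4, 58.8 and 94.8 in RVM, a difference of -4.70 ± 0.27. The serotonin transporter gene Slc6a4 stood at 0.0306, 0.0759 and 0.0735 FPKM in thalamus and 19.8, 16.7 and 21.8 in RVM, a difference of -4.26 ± 0.12. Lamp5, Sncg (gamma-synuclein), Spp1 (osteopontin), Prph (peripherin, a filament of neurons with long peripheral or descending axons), Htr5b (a serotonin receptor), Hoxb2, Dao (D-amino acid oxidase, which degrades D-serine), Hoxb5, Hoxb3 and C1ql1 completed the 15, with differences of -4.54 to -3.76. Crh, Htr5b, C1ql1 and the factor gene Pou4f1 are also genes of the inferior olive, which borders the RVM. They stood at 81.7 ± 19.9, 39.0 ± 11.3, 331 ± 77.7 and 26.6 ± 8.15 FPKM in RVM, and the part of olivary tissue was not tested. Of the 15, Tph2, Slc6a5, Slc6a4, Hoxb2, Hoxb5 and Hoxb3 passed the limit of 1 FPKM through RVM alone, so they had to be higher there. The difference of Lamp5 was -5.26 without thalamus library 1, and that of Sncg -3.69 without library 2. All 30 genes kept their calls in each fit that left out 1 library. They were picked for the largest differences in these same libraries. Among all calls with a difference of at least 1, 88.5% of those higher in thalamus and 92.2% of those higher in RVM did so too. In the table Tph2 is ENSRNOG00000003880 (chromosome 7, 58042281 to 58149061), Slc6a5 is ENSRNOG00000031662 (chromosome 1, 105284753 to 105336363) and Trh is ENSRNOG00000011824 (chromosome 4, 124110716 to 124113242).

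Transcription factor genes separated the regions by a few families. By the family column of the table, 905 of 1499 factor genes were tested, of which 73 were called higher in thalamus and 30 higher in RVM with a difference of at least 1, together 11.4%, the same share as over all genes. Homeobox genes had the highest share among families with at least 10 genes tested. Of 222, 59 were tested, and 10 were higher in thalamus and 18 higher in RVM by at least 1, together 47.5%. Of those 59, 15 passed the limit of 1 FPKM only through their RVM level and 12 only through thalamus, so this share cannot be read apart from the limit. The next highest shares were 28.6% of 14 genes of the THR-like family and 20% of 10 genes of the GATA family. Of 351 zinc finger genes of the C2H2 family, 20 were higher in thalamus and 2 in RVM by at least 1, which is 6.27%.

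The 12 factor genes with the largest differences in favour of thalamus, a number chosen after the values were seen, were Tcf7l2, Lhx9, Zic1, Gbx2, Lhx2, Zic2, Lef1, Nr2e1, Zic5, Zic4, Hlf and Mef2c. Lhx9 and Lhx2 are LIM homeobox genes of the embryonic thalamus. Lhx9 stood at 12.4, 19.5 and 15.6 FPKM in thalamus and 0.190, 0.166 and 0.0930 in RVM, a difference of 3.85 ± 0.17. Zic1, of a zinc finger family active in the dorsal midline and thalamus, stood at 155, 116 and 102 FPKM in thalamus and 8.29, 9.62 and 7.19 in RVM, a difference of 3.73 ± 0.17. Gbx2, which thalamic neurons need in order to extend axons to the cortex, stood at 23.1, 53.2 and 24.9 FPKM in thalamus and 2.06, 1.57 and 1.09 in RVM, a difference of 3.67 ± 0.32. Lef1, which acts with Wnt signals as Tcf7l2 does, stood at 18.2, 52.2 and 49.1 FPKM in thalamus and 2.44, 3.34 and 2.29 in RVM, a difference of 3.34 ± 0.39. Thalamus library 1 was the lowest of its group for Tcf7l2, Gbx2 and Lef1, and even there each exceeded every RVM library. Nr2e1, an orphan nuclear receptor of forebrain neural stem cells, stood at 14.1, 5.71 and 5.17 FPKM in thalamus libraries 1, 2 and 3 and was listed at 0 in all RVM libraries. By its mean, to which library 1 gave the most, it was at least 44.8-fold higher in thalamus, and by its lowest library at least 27.8-fold, taking as the limit that a count of 0 allows 3 reads per library, in the library where they make the highest FPKM. That limit covers counting error only. Of the forebrain factor list, 39 genes were tested, 19 were called higher in thalamus and 1, Pou4f1, higher in RVM, and the median difference was 1.09 against -0.02 over all genes. Of these 39, 15 passed the limit through thalamus alone, so neither the count, beside 22.6% of all genes, nor the median can be read apart from the limit.

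Hox genes were read almost only in RVM. Of the 39 in the list, 34 were at 0 in all 3 thalamus libraries, 17 were at 0 in all 6 libraries, and 16 were above 0 in every RVM library. Hoxb2 stood at 16.1, 14.9 and 17.9 FPKM in RVM libraries 1, 2 and 3 and was listed at 0 in thalamus, so it was at least 93.2-fold higher. Hoxc4 stood at 11.8, 9.81 and 8.32 FPKM and Hoxd3 at 8.28, 7.46 and 10.6 FPKM in RVM, both listed at 0 in thalamus, at least 110-fold and 118-fold higher. The bound was 122-fold for Hoxb5, 91.3-fold for Hoxd4, 69.3-fold for Hoxb4 and 16.4-fold for Hoxb6. These bounds of Hox genes use the mean of the RVM libraries. The 9 Hox genes that entered the test all passed the limit of 1 FPKM through RVM alone, so their 9 calls for RVM describe the limit as well as the regions. A 0 in this table can also be a failed estimate. Hoxa5, which the caudal hindbrain uses, was at 0 in all 6 libraries, 4 Hoxa symbols appear in the table more than once, in part on an unplaced sequence, and Cldn5 and Siglech, used by every brain's endothelium and microglia, were listed at 0 throughout.

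With all 6 libraries, other hindbrain factor genes were called for RVM where they were called. Of 22 tested in that list 11 were called higher in RVM, where 22.7% of all genes were, but 7 of the 22 passed the limit of 1 FPKM through RVM alone and 1 through thalamus alone. By limma 0 were called higher in thalamus, as were 0 at an unadjusted p below 0.05 and 0 by limma-voom on the recovered reads. The median difference was -0.72. Fev, the factor that defines serotonin neurons, stood at 0.268, 0.0415 and 0.161 FPKM in thalamus and 6.78, 5.25 and 6.99 in RVM, a difference of -2.66 ± 0.16. The regions did not overlap for it. Nkx6-1, Pbx3, Pax2 and Meis1 had differences of -1.99, -1.90, -1.75 and -1.74. Lmx1b, which serotonin neurons keep, was below the limit of 1 FPKM on average, at 0.0423, 0.420 and 0.356 FPKM in thalamus and 0.780, 1.15 and 0.965 in RVM. Pou4f1, of the forebrain list and used by habenular and olivary neurons, stood at 6.45, 0.298 and 7.61 FPKM in thalamus and 23.9, 20.1 and 35.8 in RVM. Its difference was -2.62 ± 0.71 (adjusted p = 0.0235), and the call was lost without RVM library 1 (-2.67), 2 (-2.79) or 3 (-2.39). Without thalamus library 2 it was called at -1.74. Meis2, also of the forebrain list, stood at 29.1, 1.16 and 2.04 FPKM in thalamus and 25.8, 24.6 and 27.6 in RVM. It was not called (limma adjusted p = 0.0959). Without thalamus library 1 its difference was -3.39 and it was called.

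**Figure D3:**
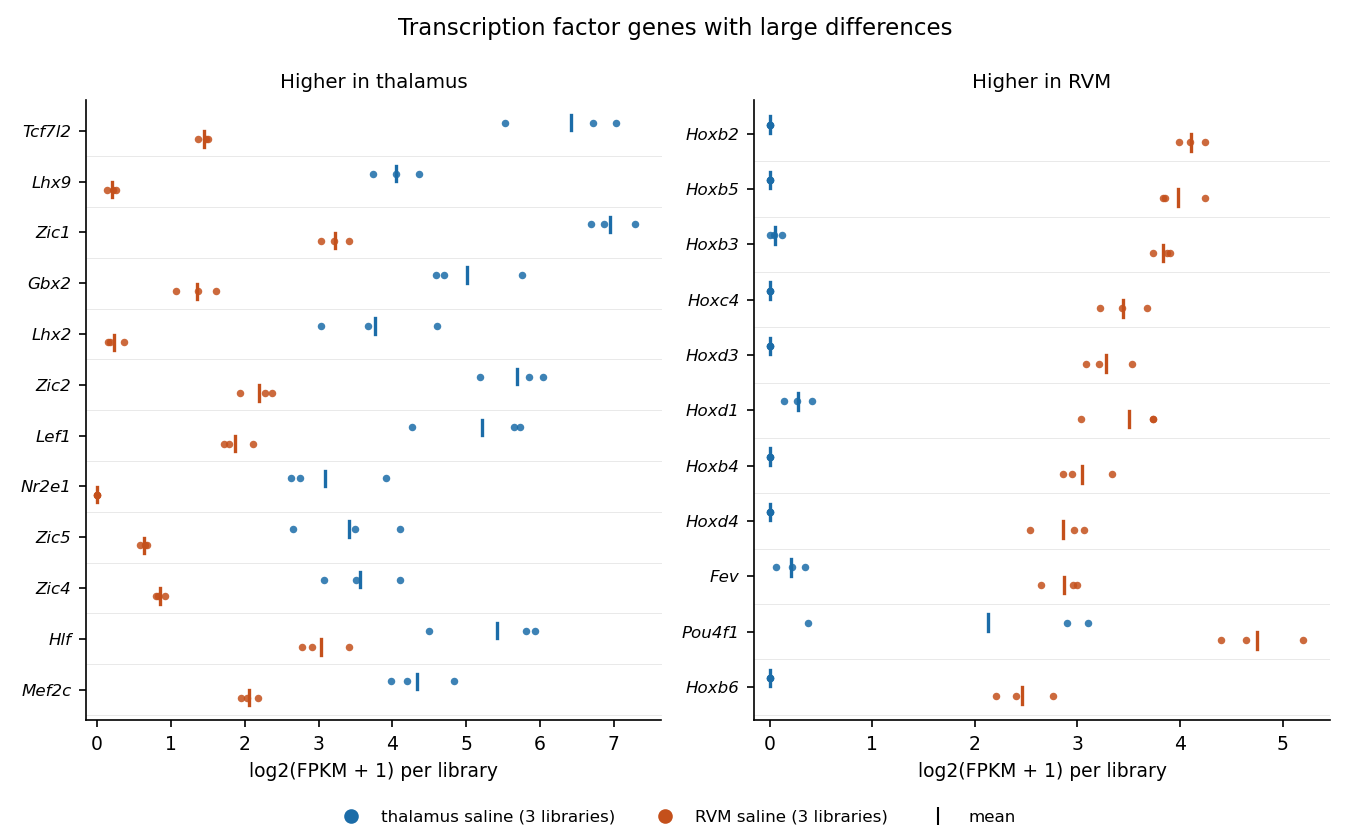
Levels of 23 factor genes with large differences, 12 higher in thalamus and 11 higher in RVM, as log2(FPKM + 1) on the x axis, with 1 point per library (thalamus blue, RVM orange, 3 each) and a bar at each mean. The regions overlap for none of the 23 genes, which were picked for large differences in these libraries, nor for 58.8% of all genes tested. The widest spread within a region is that of Pou4f1 in thalamus, where library 2 stood at 0.298 FPKM.

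The promoters of a few of these genes are shown because the serotonin, glycine and peptide genes that separated the regions include some with and some without a TATA motif. The sequences come from RefSeq on build GRCr8, whose table held 188 of the 269 named genes. Each runs from 100 bases before to 20 bases after the annotated start, on the gene's strand, with the motif TATAAA in capitals where it occurs.
Tcf7l2: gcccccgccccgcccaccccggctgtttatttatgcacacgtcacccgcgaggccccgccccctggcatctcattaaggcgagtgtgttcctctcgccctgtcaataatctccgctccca
Slc6a5: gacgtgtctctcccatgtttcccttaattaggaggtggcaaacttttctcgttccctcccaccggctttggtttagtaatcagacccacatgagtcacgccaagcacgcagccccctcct
Tph2: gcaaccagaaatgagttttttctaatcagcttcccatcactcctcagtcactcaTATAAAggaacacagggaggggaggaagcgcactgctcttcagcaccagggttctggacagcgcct
Vip: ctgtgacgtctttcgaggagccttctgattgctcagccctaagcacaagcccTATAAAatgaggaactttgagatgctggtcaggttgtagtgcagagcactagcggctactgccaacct
Gal: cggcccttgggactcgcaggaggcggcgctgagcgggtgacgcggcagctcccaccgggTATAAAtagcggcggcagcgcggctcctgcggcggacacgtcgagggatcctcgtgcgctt
Prlh: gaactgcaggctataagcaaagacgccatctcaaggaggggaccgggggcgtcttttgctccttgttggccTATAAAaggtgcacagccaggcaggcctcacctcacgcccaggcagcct
These windows lie at chr1:264791235-264791354 (Tcf7l2, plus strand), chr1:108781453-108781572 (Slc6a5, plus), chr7:52675620-52675739 (Tph2, minus), chr1:44470380-44470499 (Vip, plus), chr1:210084553-210084672 (Gal, minus) and chr9:98994063-98994182 (Prlh, plus). The windows of Tph2 and of the peptide genes Vip, Gal and Prlh hold TATAAA, beginning 46, 48, 41 and 29 bases before the start, and those of Tcf7l2 and Slc6a5 do not hold it. The motif and the genes were chosen after the values were seen. Searched as TATAAA on both strands of the 300 bases from 250 before to 50 after the start, it was found in 14.3% of all 27457 promoters in the table and in 6.48% of those of the genes tested. The share was 7.11% among promoters of genes called higher in thalamus by at least 1, and 9.47% for RVM. In the neuropeptide list 12 of 29 promoters held it (41.4%), and in the forebrain and hindbrain factor lists 5.71% and 3.12%. A match describes letters in a window, and no binding was measured.

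Among the listed genes that make or transport glutamate, GABA or glycine, the glycine transporter gene Slc6a5 had the largest difference. The genes of GABA synthesis did not pass the test. Of 10 glutamate genes tested, 4 were called higher in thalamus and 1 higher in RVM, with a median of 0.55. Of 8 GABA genes, 3 were called higher in thalamus (22.6% of all genes were) and 0 higher in RVM by limma, nor were any (0) at an unadjusted p below 0.05 or by limma-voom, with a median of 0.30. Slc17a6, the vesicular glutamate transporter of relay neurons and much of the brainstem, stood at 85.1, 228 and 167 FPKM in thalamus and 66.6, 53.4 and 69.2 in RVM. Every thalamus library was above every RVM library, and the difference was 1.23 ± 0.34 (limma adjusted p = 0.0256). Its call was lost in 5 of 6 fits that left out a library: thalamus 2 (0.92) or 3 (1.14), or RVM 1 (1.27), 2 (1.11) or 3 (1.30). Slc17a7, the transporter of cortical excitatory neurons, stood at 100.1, 24.3 and 57.8 FPKM in thalamus and 22.4, 32.8 and 21.3 in RVM, highest in thalamus library 1, and was not called (adjusted p = 0.125), but was called without thalamus library 2 (1.57). Gad1 and Gad2 make GABA. Gad1 stood at 90.2, 8.24 and 22.0 FPKM in thalamus and 22.6, 22.5 and 22.0 in RVM, with thalamus library 1 above and library 2 below the RVM libraries. Neither gene was called (0.20 and 0.38, adjusted p = 0.846 and 0.66). Slc32a1, which loads both GABA and glycine into vesicles, stood at 93.6, 10.9 and 24.2 FPKM in thalamus and 74.9, 76.5 and 76.8 in RVM. It was not called (adjusted p = 0.156), but without thalamus library 1 its difference was -2.15 and it was called.

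In the glycine list, 8 genes were tested, 4 were called higher in RVM (22.7% of all genes were) and 1 higher in thalamus, and 1 passed the limit through each region alone. Slc6a5, given above, had means of 0.474 ± 0.157 and 53.6 ± 3.17 FPKM. Glra1, the adult receptor subunit that binds glycine, stood at 1.35, 4.90 and 6.62 FPKM in thalamus and 23.9, 21.4 and 23.7 in RVM, a difference of -2.34 ± 0.41. Slc6a9, the glial glycine transporter, had a difference of -0.94 ± 0.13, and Slc7a10, a transporter of small neutral amino acids, one of -0.76 ± 0.15. Glra2, a subunit more typical of the immature brain, was the one higher in thalamus, at 4.24, 9.75 and 6.91 FPKM in thalamus and 2.85, 2.17 and 2.67 in RVM, a difference of 1.10 ± 0.26. Its call was lost without RVM library 2 (1.02, adjusted p = 0.051).

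Serotonin genes other than 2 were called higher in RVM. Of 10 tested, 8 were called higher in RVM, where 22.7% of all genes were, and 1 higher in thalamus, with a median difference of -1.42. The limit was passed through RVM alone by 2 of them and through thalamus alone by 1. Beyond Tph2 and Slc6a4, the cofactor enzyme Gch1 had a difference of -2.29 ± 0.12, the decarboxylase Ddc of -2.04 ± 0.14 and the cofactor-recycling enzyme Qdpr of -1.03 ± 0.17. Slc18a2, which loads monoamines into vesicles, stood at 14.0, 3.38 and 4.86 FPKM in thalamus and 23.0, 21.3 and 30.6 in RVM, a difference of -1.82 ± 0.44. Its call was lost without RVM library 3 (-1.67, adjusted p = 0.0559). Slc22a3, a low-affinity monoamine transporter, was the one higher in thalamus, at 2.91, 5.45 and 3.43 FPKM in thalamus and 0.496, 0.493 and 0.519 in RVM, a difference of 1.68 ± 0.20. The raphe factor Fev moved with the list, as given above.

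The cholinergic and adrenergic genes described here were low and variable. Of 9 genes tested in that list, 5 were called higher in RVM, 4 of them by at least 1, with a median of -1.80. Over all genes 22.7% were called higher in RVM and 4.02% by at least 1, and 1 of the 9 passed the limit through RVM alone. By limma 0 were called higher in thalamus, and also 0 at an unadjusted p below 0.05 and 0 by limma-voom. Pnmt, the enzyme of adrenaline neurons, was listed at 0 in thalamus and stood at 3.59, 7.65 and 5.05 FPKM in RVM. It was at least 36.5-fold higher by its RVM mean, and at least 24.1-fold by its lowest RVM library. Slc18a3, the vesicular acetylcholine transporter, stood at 3.15, 0 and 1.54 FPKM in thalamus and 6.15, 20.8 and 10.4 in RVM, a difference of -2.47 ± 0.60. Its call was lost without RVM library 2 (-2.04) and by limma-voom (adjusted p = 0.0709). Slc5a7, which takes up choline, had a difference of -2.22 ± 0.63, lost without RVM library 2 (-1.83) or 3 (-2.31) and with no filter (adjusted p = 0.0508), and was -1.55 without thalamus library 2. Chat, which makes acetylcholine, stood at 3.88, 0 and 3.02 FPKM in thalamus and 4.72, 15.3 and 7.86 in RVM and was not called (adjusted p = 0.0651), but was without thalamus library 1 (-2.23). RVM library 2 was the highest of the 6 for Chat, Slc18a3 and Pnmt. Th, the first enzyme of catecholamine synthesis, overlapped between regions at 1.02, 8.08 and 8.52 FPKM in thalamus and 2.97, 5.76 and 3.96 in RVM and was not called (adjusted p = 0.877). It was called higher in thalamus without thalamus library 1 (0.86). Dbh, which makes noradrenaline, was below the limit at 0.223, 0 and 0.0268 FPKM in thalamus and 0.931, 2.73 and 1.39 in RVM.

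Of 32 neuropeptide precursors tested, 14 were called higher in RVM, 13 of them by at least 1, and 3 higher in thalamus, with a median difference of -0.66. Over all genes 22.7% were called higher in RVM and 4.02% by at least 1. Of the 32, 5 passed the limit through RVM alone and 3 through thalamus alone. Cck, the precursor of cholecystokinin, stood at 242, 481 and 469 FPKM in thalamus and 24.1, 24.1 and 30.3 in RVM, a difference of 3.81 ± 0.27. Vip, the precursor of vasoactive intestinal peptide, stood at 9.28, 14.9 and 29.0 FPKM in thalamus and 0.902, 1.09 and 0.980 in RVM, a difference of 3.09 ± 0.36. Both were higher in every thalamus library than in any RVM library. Grp, the precursor of gastrin-releasing peptide, had a difference of 1.10 ± 0.26, and its call was lost without RVM library 1 (1.00, adjusted p = 0.0556).

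On the RVM side, Penk, the precursor of enkephalins, stood at 35.5, 16.5 and 10.2 FPKM in thalamus and 146, 151 and 131 in RVM, a difference of -2.90 ± 0.40. Calca, the precursor of calcitonin and of calcitonin gene-related peptide, stood at 1.19, 0.859 and 1.02 FPKM in thalamus and 17.7, 30.9 and 20.6 in RVM, a difference of -3.54 ± 0.20, and its paralog Calcb had one of -2.46 ± 0.43. The regions did not overlap for Penk or Calca, and RVM library 2 was the highest for both. Tac1, the precursor of substance P, stood at 27.9, 13.6 and 25.8 FPKM in thalamus and 61.1, 42.9 and 68.0 in RVM, a difference of -1.35 ± 0.29. Prlh, the precursor of prolactin-releasing peptide, was listed at 0 in thalamus. It was at least 9-fold higher in RVM by its mean, and at least 4.22-fold by its lowest RVM library. Gal, the precursor of galanin, had a difference of -1.82 ± 0.24, and Pomc, the precursor of beta-endorphin, of -0.74 ± 0.12.

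The remaining opioid and hypothalamic peptides were not called. Pdyn, the precursor of dynorphins, stood at 6.80, 2.81 and 1.78 FPKM in thalamus and 3.09, 3.85 and 3.81 in RVM (adjusted p = 0.893). Sst, the precursor of somatostatin, stood at 263, 58.9 and 39.1 FPKM in thalamus and 144, 130.0 and 109.6 in RVM (adjusted p = 0.505) and was called higher in RVM without thalamus library 1 (-1.38). Oxt and Avp, high in thalamus library 2 alone, had differences of 2.0 and 1.01 (adjusted p = 0.352 and 0.436), and of -0.07 and -0.21 without that library.

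**Figure D4:**
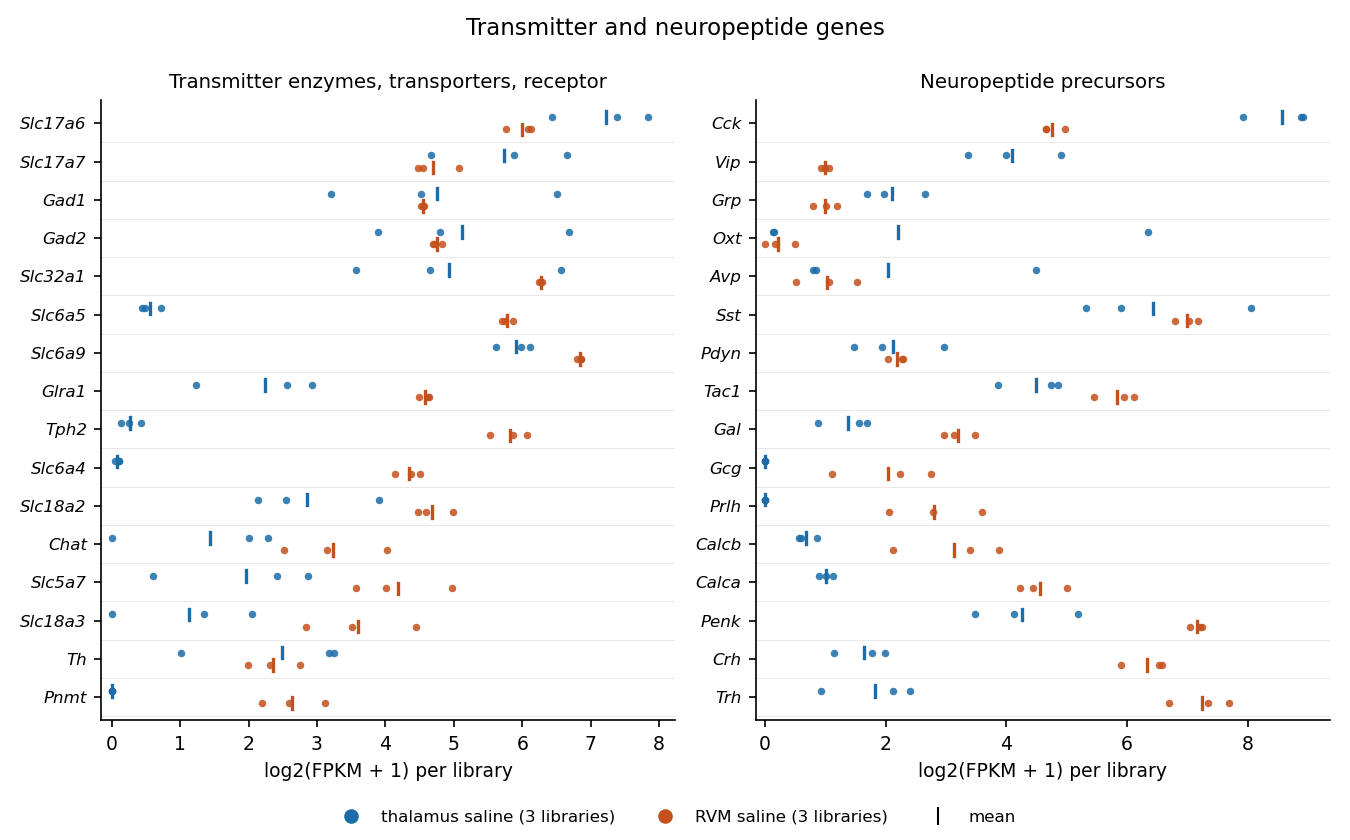
Levels of transmitter genes (left) and neuropeptide precursors (right), as log2(FPKM + 1) on the x axis, with 1 point per library (thalamus blue, RVM orange, 3 each) and a bar at each mean. Tph2, Slc6a5, Trh and Crh separate the regions widely, whereas Gad1, Gad2, Th and Pdyn overlap.

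Peptide receptors were called in both directions. Of 37 tested, 12 were called higher in thalamus, 8 of them by at least 1, and 4 higher in RVM, with a median of 0.21. Over all genes 22.6% were called higher in thalamus, 7.36% by at least 1, and 6 of the 37 passed the limit through thalamus alone and 1 through RVM alone. Oprm1, the mu opioid receptor on which morphine acts, stood at 2.52, 8.01 and 6.50 FPKM in thalamus and 0.559, 0.460 and 0.524 in RVM. Its means were 5.68 ± 2.83 and 0.514 ± 0.0504 FPKM and its difference 2.03 ± 0.34 (limma adjusted p = 0.00393), with every thalamus library above every RVM library. Oprm1 is among the 6 that passed the limit through thalamus alone, so it had to be higher there. The kappa receptor gene Oprk1, at 2.75, 2.75 and 1.92 FPKM in thalamus and 2.82, 2.33 and 3.72 in RVM, overlapped between regions and was not called (adjusted p = 0.431). The delta receptor gene Oprd1, at 1.10, 0.660 and 0.469 FPKM in thalamus and 1.52, 1.06 and 1.58 in RVM, was not called (adjusted p = 0.0994), but was called higher in RVM without thalamus library 1 (-0.61). Whether the opioid receptors differ from each other in this was not tested. Ramp3, which modifies calcitonin-type receptors, stood at 58.6, 134 and 121 FPKM in thalamus and 12.6, 8.45 and 10.9 in RVM, a difference of 3.11 ± 0.32, whereas its relative Ramp2 was higher in RVM, with -0.89 ± 0.12, as was the calcitonin receptor gene Calcr, with -1.06 ± 0.24. Nmbr, the neuromedin B receptor, and Npy1r, a neuropeptide Y receptor, had differences of 2.25 ± 0.27 and 1.85 ± 0.34.

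Of 32 receptors for amines and acetylcholine tested, 15 were called higher in thalamus and 6 higher in RVM, where 22.6% and 22.7% of all genes were. Of the 32, 8 passed the limit through thalamus alone and 1 through RVM alone, so the count cannot be read apart from the limit. Chrna3, a nicotinic subunit rich in the habenula, stood at 23.3, 9.01 and 24.9 FPKM in thalamus and 0.474, 0.726 and 0.296 in RVM, a difference of 3.63 ± 0.37. Its partner Chrnb4 had 2.31 ± 0.46. Thalamus library 2, which held the least of the habenula list, was the lowest of the 3 for Chrna3, and the part of habenula in this result was not tested. Chrna4 and Chrnb2, which form the most widespread nicotinic receptor of the brain, had differences of 2.28 ± 0.33 and 2.23 ± 0.24. Hrh3, the histamine autoreceptor, stood at 38.1, 66.9 and 54.6 FPKM in thalamus and 4.54, 5.18 and 4.73 in RVM, a difference of 3.18 ± 0.19. Adra2b, the adrenergic receptor subtype typical of thalamus, had 2.49 ± 0.24, and Drd1, a dopamine receptor, 1.89 ± 0.14. Among those higher in RVM, Htr5b stood at 2.77, 0.0281 and 1.91 FPKM in thalamus and 38.3, 28.1 and 50.7 in RVM, a difference of -4.12 ± 0.49, and the serotonin receptor genes Htr2a and Htr1d and the adrenergic receptor gene Adra1d had -1.39 ± 0.19, -1.04 ± 0.17 and -1.95 ± 0.25.

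Inhibitory and excitatory receptors were mostly higher in thalamus. Of 16 GABA receptor subunits tested, 10 were called higher in thalamus, 7 of them by at least 1, and 1 higher in RVM. Over all genes 22.6% were called higher in thalamus, 7.36% by at least 1, and 22.7% higher in RVM. Gabra4, which assembles with the delta subunit, stood at 46.6, 102 and 97.2 FPKM in thalamus and 9.71, 8.32 and 11.7 in RVM, a difference of 2.86 ± 0.30. Gabbr2, a subunit of the metabotropic GABA-B receptor, had 2.53 ± 0.24, and the subunits Gabrb2 and Gabra3 had 2.37 ± 0.28 and 1.37 ± 0.20. The 1 higher in RVM, Gabrg1, differed by -0.28 ± 0.09. That call held in only 1 of 6 fits that left out a library and was lost with the same FPKM total (-0.10, adjusted p = 0.438). Of 25 glutamate receptor genes, 18 were called higher in thalamus, 13 by at least 1, and 2 higher in RVM, with a median of 1.04. In each of these lists 1 member passed the limit through thalamus alone. Grin2b, an NMDA receptor subunit, stood at 8.51, 9.32 and 9.97 FPKM in thalamus and 0.974, 1.03 and 0.849 in RVM, a difference of 2.39 ± 0.10. The metabotropic receptor genes Grm4, Grm2 and Grm5 had differences of 2.61 ± 0.28, 2.18 ± 0.22 and 2.17 ± 0.24. The AMPA subunit gene Gria4 did not differ by the test (-0.02), and the kainate subunit gene Grik4 was higher in RVM (-0.82 ± 0.07).

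Channels that shape firing were also called higher in thalamus in larger numbers than in RVM. Of 34 calcium, sodium and HCN channel genes tested, 22 were called higher in thalamus and 1 higher in RVM, where 22.6% and 22.7% of all genes were, with a median of 0.97. Cacna1g, the main T-type calcium channel of relay neurons, stood at 24.0, 47.0 and 40.2 FPKM in thalamus and 6.67, 6.02 and 9.0 in RVM, a difference of 2.17 ± 0.26. Hcn4, a pacemaker channel, stood at 9.87, 18.4 and 16.4 FPKM in thalamus and 1.66, 2.12 and 1.87 in RVM, a difference of 2.42 ± 0.22. Neither overlapped between regions. Cacng5, an auxiliary subunit of AMPA receptors, had 2.92 ± 0.20, and the L-type channel gene Cacna1c 2.05 ± 0.25. The 1 higher in RVM was Scn4b, a sodium channel subunit linked to resurgent current in fast-firing neurons, at 12.3, 9.41 and 26.3 FPKM in thalamus and 72.9, 71.4 and 61.8 in RVM, a difference of -2.16 ± 0.33. Of 49 potassium channel genes, 20 were called higher in thalamus and 3 higher in RVM, and 4 of the 49 passed the limit through thalamus alone. Kcnf1, a silent subunit that modifies other channels, stood at 25.7, 25.9 and 25.2 FPKM in thalamus and 0.785, 0.644 and 0.316 in RVM, a difference of 4.08 ± 0.13, and Kcnc2, of the fast-spiking Kv family, had 2.76 ± 0.43. Kcnj6 and Kcnj9, subunits of channels opened by G proteins, had 2.29 ± 0.10 and 1.82 ± 0.25. In RVM the inward rectifier gene Kcnj14 and the silent subunit gene Kcng4 were higher, with differences of -1.30 ± 0.23 and -1.26 ± 0.12.

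General neuronal genes were called in both directions, whereas genes of thick axons were called for RVM. Of 14 pan-neuronal genes tested, 8 were called higher in thalamus (22.6% of all genes were) and 2, Snap25 and Stmn2, higher in RVM. Nrgn, a postsynaptic protein of forebrain neurons, stood at 221, 32.0 and 47.5 FPKM in thalamus and 8.68, 8.04 and 6.29 in RVM, a difference of 3.04 ± 0.66, or of 2.22 without thalamus library 1, and the synaptic genes Syt1 and Syn1 had 1.86 ± 0.14 and 1.47 ± 0.08. The differences of Snap25 and Stmn2, -0.48 and -0.43, were no longer called with the same FPKM total. They were also lost in 3 fits each that left out a library: Snap25 without RVM 1 (-0.43), 2 (-0.46) or 3 (-0.53), and Stmn2 without thalamus 3 (-0.43) or RVM 2 (-0.35) or 3 (-0.44). Of 14 axon and filament genes, 11 were called higher in RVM, all by at least 1, with a median of -2.61, where 22.7% and 4.02% of all genes were. By limma 0 were called higher in thalamus, and also 0 at an unadjusted p below 0.05 and 0 by limma-voom. Nefm, a neurofilament subunit of large axons, stood at 67.4, 98.5 and 132 FPKM in thalamus and 613, 812 and 675 in RVM, a difference of -2.85 ± 0.24. Sncg and Prph, named above, stood at 47.5, 9.71 and 25.7 FPKM in thalamus and 409, 538 and 455 in RVM and 2.52, 9.21 and 11.5 FPKM in thalamus and 107, 161 and 146 in RVM. The synaptic genes Syt2 and Vamp1, found at fast terminals of the brainstem, had differences of -2.93 ± 0.50 and -2.71 ± 0.31, and that of Syt2 was -2.32 without thalamus library 1. Among synaptotagmins the regions thus differed in opposite directions, with Syt1 higher in thalamus and Syt2 higher in RVM.

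Myelin genes were higher in RVM without exception in the list. All 31 oligodendrocyte genes tested were called higher in RVM by limma, 24 by at least 1, with a median of -1.62, where 22.7% and 4.02% of all genes were. Mbp, myelin basic protein, stood at 2458, 2181 and 3275 FPKM in thalamus and 11362, 11561 and 12509 in RVM. It had means of 2638 ± 569 and 11811 ± 613 FPKM, a difference of -2.18 ± 0.16 (limma adjusted p = 0.000242). The lowest RVM library was above the highest thalamus library. Klk6, a protease of mature oligodendrocytes, stood at 41.1, 32.0 and 44.0 FPKM in thalamus and 223, 205 and 255 in RVM, a difference of -2.52 ± 0.14. Apod, a lipid carrier, and Ugt8, which makes myelin galactolipids, had -2.44 ± 0.18 and -2.37 ± 0.24. The smallest difference of the 31 belonged to Olig2, a factor of the whole lineage, with -0.35 ± 0.10. The call of Olig2 was lost with the same FPKM total (-0.17) and without RVM library 1 (-0.34) or 2 (-0.31). Of 10 genes of oligodendrocyte precursors, 4 were called higher in each region (22.6% and 22.7% of all genes were), with a median of -0.04. Ptprz1, a phosphatase of precursors and astrocytes, was higher in thalamus by 0.65 ± 0.10. Pdgfra, the growth factor receptor that defines precursors, had 0.39 ± 0.12, and its call held only without thalamus library 2 (the 5 other fits that left out a library gave 0.29 to 0.41). C1ql1, highest among those of RVM, is also the olivary gene named above.

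**Figure D5:**
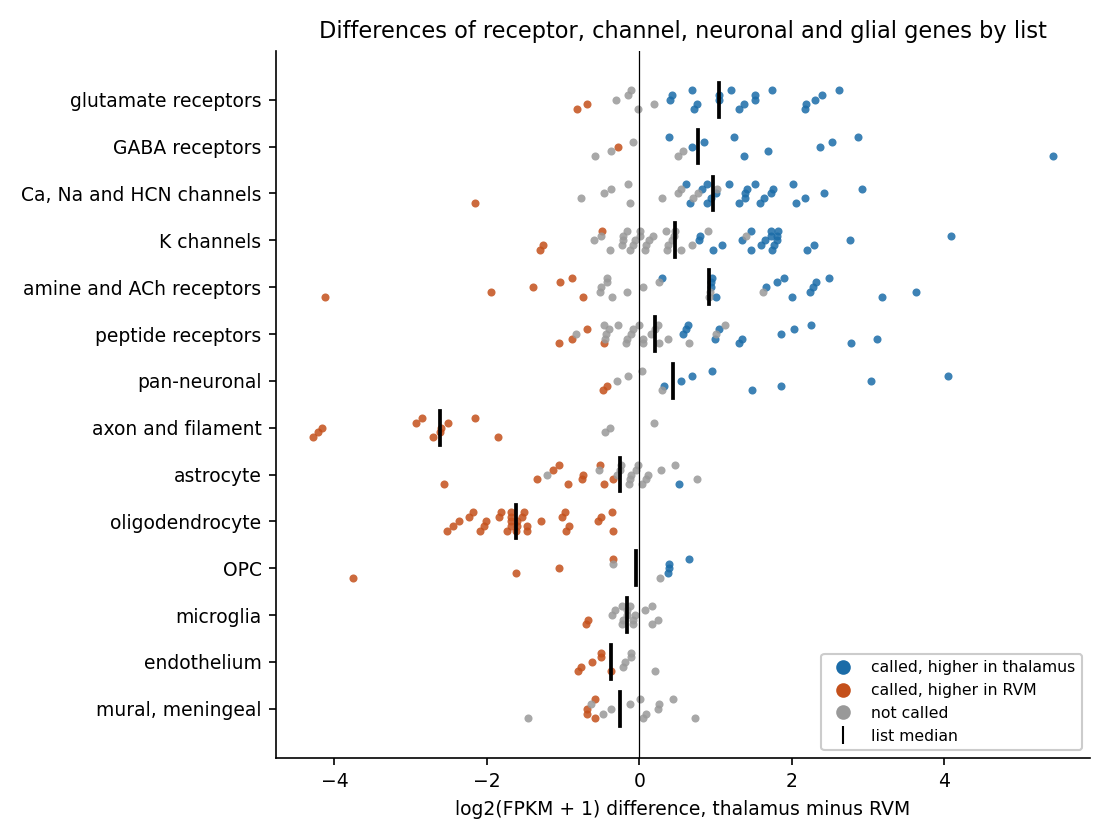
Differences on the log2(FPKM + 1) scale, thalamus minus RVM (x axis), of every tested gene in 14 lists (y axis), with 1 point per gene and a bar at the list median. Blue points were called higher in thalamus, orange points higher in RVM and grey points were not called. Glutamate receptors lie mostly to the right, with a median of 1.04, and oligodendrocyte and axon genes to the left, with medians of -1.62 and -2.61.

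Some astrocyte genes were higher in RVM, and few microglial genes were called. Of 27 astrocyte genes tested, 10 were called higher in RVM, 4 of them by at least 1, and 1 higher in thalamus, with a median of -0.25. Over all genes 22.7% were called higher in RVM and 4.02% by at least 1. Gfap, the filament protein of fibrous and reactive astrocytes, stood at 155, 79.3 and 137 FPKM in thalamus and 674, 679 and 773 in RVM. Its difference was -2.56 ± 0.24 (limma adjusted p = 0.000496), and in the CFA libraries, where the difference was -0.59, the regions overlapped. Aqp4, the water channel of astrocyte endfeet, stood at 153, 131 and 190.1 FPKM in thalamus and 307, 363 and 361 in RVM, a difference of -1.13 ± 0.15. S100b and Aldoc had -1.34 ± 0.10 and -1.05 ± 0.14. Glul, the astrocyte enzyme that makes glutamine, was not called (-0.02), and neither was Slc6a11, the astrocyte GABA transporter (0.47, adjusted p = 0.225), which was called higher in thalamus without thalamus library 1 (0.81).

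Of 17 microglial genes, 2 were called higher in RVM, where 22.7% of all genes were. By limma 0 were called higher in thalamus, and also 0 at an unadjusted p below 0.05 and 0 by limma-voom. Aif1 and Cx3cr1, which mark microglia, were not called (-0.32 and -0.08). Tyrobp, a signalling adaptor of myeloid cells, was higher in RVM, with a difference of -0.68 ± 0.11, but was not called with all 12 libraries in 1 model (adjusted p = 0.131). Of 11 endothelial genes 6 were called higher in RVM, where 22.7% of all genes were, none by as much as 1, led by the transporter genes Slco1c1 (-0.81 ± 0.12) and Slco1a4 (-0.77 ± 0.08). Of 16 mural and meningeal genes 4 were, among them the pericyte gene Rgs5 (-0.69 ± 0.09), a share near that of all genes. With every library at the same FPKM total, Tek (-0.37), a receptor of endothelial cells, and Mfsd2a (-0.62), a lipid transporter of the blood-brain barrier, were no longer called. The call of Mfsd2a was also lost without thalamus library 2 (-0.43) or 3 (-0.63) or RVM library 1 (-0.59) or 2 (-0.50). By limma 0 endothelial and 0 mural genes were called higher in thalamus, where 0 and 1 passed at an unadjusted p below 0.05 and 0 and 1 by limma-voom.

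Precursors of microRNAs were read at low counts. Of 121 in the genes tested, 20 were called higher in thalamus and 9 higher in RVM, smaller shares than the 22.6% and 22.7% of all genes. Fragments of a precursor and of its host transcript were not told apart, and the libraries do not measure mature microRNAs. Mature sequences of the precursors described here, from RefSeq on build GRCr8, are shown with the seed (bases 2 to 8), which selects targets, in capitals. For Mir770, Mir331 and Mir100 the mature sequence from the other arm of the precursor is not printed.
miR-132-5p: aCCGUGGCuuucgauuguuacu
miR-132-3p: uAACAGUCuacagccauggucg
miR-770-5p: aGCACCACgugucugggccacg
miR-331-3p: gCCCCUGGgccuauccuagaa
miR-100-5p: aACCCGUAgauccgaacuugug
They lie at chr10:60522055-60522076, chr10:60522091-60522112 and chr6:134298094-134298115 (plus strand), chr7:30414401-30414421 (minus) and chr8:50798307-50798328 (plus). No 2 of these share a seed. Mir132, whose product is induced by neuronal activity, had 37, 16 and 12 reads in thalamus libraries 1, 2 and 3 and 2, 3 and 1 in RVM, a difference of 2.43 ± 0.37. Mir770 had 159, 138 and 103 reads in thalamus and 48, 27 and 24 in RVM, a difference of 1.85 ± 0.25. Mir331 had a difference of 1.35 ± 0.30. Mir100 had 2, 3 and 2 reads in thalamus and 6, 4 and 8 in RVM, a difference of -1.09 ± 0.21. The regions did not overlap for any of these 4 precursors, which were chosen after their values were seen, nor for 58.8% of all genes tested. At such counts a few reads decide the value.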

How the data were processed

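The authors deposited 1 table of FPKM values for 34525 genes under Ensembl rat identifiers, with gene length, coordinates, strand, biotype and factor family, per the file headers. RNA was taken up in Trizol and made into libraries with an Illumina TruSeq kit, per the labels' protocols. No source used here names the aligner, the counting tool, its strand setting or the genome build. Without a stated strand setting, reads of overlapping and antisense genes were not told apart.

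Groups came from the tissue and treatment labels. In each library the products of FPKM and gene length rose in equal steps (100% of values, tolerance 0.01), and a step was taken as 1 read. The total that the authors divided by was 0.9335 to 1.0415 times the recovered total in the 6 libraries, so the deposited values were also scaled between libraries in a way that is not stated. All pairs of replicates differed beyond sampling noise (chi-square divided by its degrees of freedom, 7.44 to 44.45).

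A trended empirical Bayes model from limma 3.58.1 (R 4.3.3) was fitted to log2(FPKM + 1) of the 6 libraries, leaving 4 residual degrees of freedom. Differences on this scale understate those of low genes. Tables and figures were made with Python 3.11.15, pandas 2.3.3 and matplotlib 3.10.9. The main fit was run on simulated data in which both regions had the same spread. The wider spread among the thalamus libraries was not simulated. Of 665 symbols in 31 gene lists 651 matched the table, 2 of them through RefSeq identifiers or synonyms, and 14 did not.

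The named genes were the 15 largest differences per direction among called genes with a symbol, up to 6 called members per list and direction, the 2 uncalled members per list with the highest mean, and a short group of region and cell markers. Dlx1, Gad2, Cldn5, Siglech, the factor genes with the largest differences and the 4 microRNA precursors were named after their values were seen. Some genes that these choices cover are not reported here. The comparison, the members and the lists were chosen with earlier results of these data known. Alternatives were a pseudocount of 0.1, no filter, a filter at 5 FPKM, the same FPKM total, quantile normalization, median-of-ratios scaling, array weights, robust empirical Bayes, a replicate block, all 12 libraries in 1 model, limma-voom on the recovered reads, and leaving out libraries.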

Additional observations from a re-analysis of the deposited data

Results flagged for a closer look

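For 2 of the genes described, the libraries of the regions did not overlap in saline rats or in CFA rats, but stood in opposite order. Cd44, a cell adhesion receptor, had a difference of -0.91 between the saline libraries and of 0.80 between the CFA libraries. In saline rats it was called higher in RVM, but that call held in only 1 of 6 fits that left out a library and was lost with the same FPKM total (-0.79, adjusted p = 0.0515, limma). Kcne2, a potassium channel subunit of the choroid plexus, had a difference of -0.42 in saline and of 2.04 in CFA libraries, and was not called in saline rats (limma adjusted p = 0.102). The difference between the treatments in this contrast was not tested for either gene.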

How the results depend on the processing

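With every library at the same FPKM total, the count of genes higher in RVM was 2012 instead of 3271 and that of genes higher in thalamus 4559 instead of 3249, which moved the share higher in thalamus from 49.8% to 69.4% of all calls. Limma-voom on the recovered reads gave 59.4%, with 3777 and 2585 genes. Leaving out each library in turn gave 2449 to 3608 genes higher in thalamus and 2410 to 3587 higher in RVM, in both cases most without thalamus library 1. Without thalamus libraries 1 and 2 together, where the lone library left is assumed to vary like those of RVM, the counts were 2648 and 2500. The replicate number as a block gave 2905 and 2859. Same-numbered libraries of the regions correlated at 0.11, 0.019 and -0.013 in their deviations from the group means, and RVM libraries 2 and 3 correlated better with another number, so the numbers were not taken to pair the libraries.

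Of the 201 named genes called, 158 kept their call under all alternatives that tested them. In all 6 fits that left out 1 library, 170 did. The filter at 5 FPKM tested only 152 of the 201. A change of sign occurred for 0 of the 201. Of the 62 named genes not called, 30 were called under some alternative. Irx1, a homeobox gene of the hindbrain factor list, had a difference of 0.55 without thalamus libraries 1 and 2, against -0.01 with all 6. The cause was not tested. Genes at a few reads, such as the microRNA precursors, are limited by depth.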

Other observations

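Several lists of neighbouring tissues held genes that the regions use themselves, and their members moved in both directions. Among 8 genes of choroid plexus and ependyma tested, 4 were called higher in thalamus and 2 higher in RVM, where 22.6% and 22.7% of all genes were. But 5 of the 8 passed the limit of 1 FPKM through thalamus alone and 2 through RVM alone, which fixed their direction. Ccdc153 and Tmem212, genes of ciliated ependymal cells, stood at 14.0, 4.12 and 5.99 FPKM in thalamus and 0.999, 0.193 and 0.122 in RVM and at 8.77, 1.55 and 3.59 FPKM in thalamus and 0.453, 0 and 0.0885 in RVM, with thalamus library 1 the highest for both, and their differences were 2.55 ± 0.43 and 2.06 ± 0.47 (limma), or 2.11 and 1.55 without that library. Ttr, transthyretin of the choroid plexus, stood at 18.0, 2.31 and 4.91 FPKM in thalamus and 1.94, 0.818 and 0 in RVM. Its call (adjusted p = 0.0484) held in only 1 of 6 fits that left out a library, being lost without thalamus library 1 (1.34) or 3 (2.18) or RVM library 1 (2.42), 2 (2.07) or 3 (1.64). Enpp2, which choroid plexus and oligodendrocytes both use, was higher in RVM, with -1.74 ± 0.12, but was not called with all 12 libraries in 1 model (adjusted p = 0.0568). In the CFA libraries the regions overlapped for it.

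Among 8 genes listed for the cerebellum, 5 were called higher in thalamus, where 22.6% of all genes were, although Pcp2 and Gabra6 were at or near 0. Itpr1, the receptor through which inositol trisphosphate releases calcium, stood at 32.2, 40.9 and 37.4 FPKM in thalamus and 3.37, 3.57 and 2.63 in RVM, a difference of 3.18 ± 0.13, and Pcp4, which binds calmodulin, had 2.07 ± 0.26. Among the 10 habenula genes tested, 3 were called in each direction (22.6% and 22.7% of all genes were), and 4 of the 10 passed the limit through thalamus alone. Gpr151 had a difference of 3.55 ± 0.95 (adjusted p = 0.0226), lost without thalamus library 3 (2.96) or RVM library 1 (3.62), 2 (3.54) or 3 (3.50), and was 4.76 without thalamus library 2. Among the 8 striatal genes tested, 3 were called higher in thalamus, among them Drd1 and the phosphodiesterase gene Pde10a (by 1.46 ± 0.15), and 2 higher in RVM, with 2 of the 8 past the limit through thalamus alone. Pmp2 and Pmp22, myelin genes first described in peripheral nerve, were higher in RVM, with -2.13 ± 0.12 and -1.38 ± 0.12, with Prx below 1 FPKM in all 6 libraries.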
